A study of Mus musculus with 12 samples.

Results

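The genes described here encode the machinery of mitochondrial respiration, mitochondrial protein import, fatty acid oxidation and glycolysis. They were chosen by name, with the prefixes of the respiratory complexes (Nduf, Sdh, Uqcr, Cox with a digit, Atp5), of the import translocases (Timm, Tomm), of the citric acid cycle (Idh, Aco with a digit) and of fuel use (Acad, Acs, Cpt, Hk with a digit, Pfk, Aldo, Gapdh, Eno, Pgk, Pgam, Ldh, Pdh, Pdk). The rule found 41 of 3374 captured genes, with 45 of 3781 promoter fragments and 1297 of 89545 listed contacts. The promoters comprised 5 genes of complex I, 1 of complex II, 3 of complex IV, 5 of the ATP synthase, 9 of protein import, 5 of fatty acid oxidation and 13 of glycolysis and lactate metabolism. No captured promoter carried a prefix of complex III, the citric acid cycle or the pyruvate dehydrogenase group. Enoph1, an enzyme of methionine salvage, and Pgam5, a mitochondrial phosphatase, met the rule by name only. Atp5h, Eno1, Ldha and Tomm40 had 2 promoter fragments each, which a numbered suffix tells apart (Eno1_1, Eno1_2).

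The series compared promoter contacts between mouse haematopoietic stem cells (HSCs) of the fetal liver at embryonic day 14.5 and of the bone marrow at 6 to 8 weeks of age, all of strain B6129SF1. Both populations were sorted as Lin-Sca1+cKit+CD135- cells, a gate that holds early multipotent progenitors beside stem cells. Each had 4 libraries, 2 in each of 2 capture batches, and 4 further libraries of the HPC7 cell line were not analysed here. In promoter Capture-C, cross-linked chromatin is cut, its ends are ligated, and the ligation products of chosen promoters are enriched with probes and sequenced. The deposited table gives 1 pooled value per population in a batch. No value below therefore carries a replicate error, differences between the populations cannot be compared with the variation among libraries, and no p-value is given.

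Respiratory complexes in the inner mitochondrial membrane pass electrons from NADH and succinate to oxygen and drive the ATP synthase. Most of their subunits are made in the cytosol and enter through the TOM and TIM translocases. Glycolysis makes ATP and pyruvate in the cytosol, and lactate dehydrogenase turns pyruvate into lactate. Fatty acids enter mitochondria through the Cpt1 step and are shortened by acyl-CoA dehydrogenases. Adult HSCs are mostly quiescent and are known for their reliance on glycolysis and fatty acid oxidation, whereas fetal liver HSCs cycle and are known for more active mitochondria.

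Promoters of 6 genes are shown as examples from fatty acid oxidation, glycolysis, complex II and protein import. The set includes every gene whose promoter window held the full NRF1 motif (Acad10, Acad12 and Pgam1), so it is not typical of the metabolic promoters. The sequences run 5′ to 3′ on the gene's strand, from 90 bases before the RefSeq start through its first 10 bases, in build GRCm38.p6. Capitals mark matches on either strand to the palindromic NRF1 motif of 10 bases or its core GCATGCGC, CCGGAAG (GABP and other ETS factors), CCAAT (the CCAAT box) or GGGCGG (Sp and KLF factors), of which the last 2 are common to promoters of many kinds.
Acad10 (chr5:121660501-121660600, minus strand): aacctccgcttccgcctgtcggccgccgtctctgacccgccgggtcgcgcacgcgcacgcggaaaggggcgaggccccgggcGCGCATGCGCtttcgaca
Acad12 (chr5:121618929-121619028, minus strand): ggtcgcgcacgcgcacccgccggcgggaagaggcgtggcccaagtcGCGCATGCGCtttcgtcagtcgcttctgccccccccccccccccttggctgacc
Cpt1a (chr19:3323211-3323310, plus strand): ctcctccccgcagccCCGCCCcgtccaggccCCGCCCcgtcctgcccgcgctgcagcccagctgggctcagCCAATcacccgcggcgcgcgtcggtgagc
Pgam1 (chr19:41911781-41911880, plus strand): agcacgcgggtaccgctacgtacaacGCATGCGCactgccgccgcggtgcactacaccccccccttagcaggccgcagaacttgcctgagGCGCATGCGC
Sdhd (chr9:50603840-50603939, minus strand): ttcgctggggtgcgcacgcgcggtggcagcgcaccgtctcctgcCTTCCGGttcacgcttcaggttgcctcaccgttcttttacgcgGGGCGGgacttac
Timm23 (chr14:32201882-32201981, minus strand): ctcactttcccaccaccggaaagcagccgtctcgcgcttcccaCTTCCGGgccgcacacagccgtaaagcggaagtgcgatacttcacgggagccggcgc

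Acad10 and Acad12 are neighbours on chromosome 5, and their windows share more than the motif. A stretch of 16 bases, ggtcgcgcacgcgcac, begins 48 bases before the Acad10 start and 90 bases before the Acad12 start. A second stretch of 16 bases, cgcgcatgcgctttcg, holds the NRF1 motif and begins 9 and 45 bases before the respective starts. RefSeq promoter windows, each of 250 bases before and 50 after a start, were found for 38 of the 41 genes (47 windows) and were set beside all 32851 windows. The full NRF1 motif was in 6.38% of the metabolic windows (Acad10, Acad12 and Pgam1) and in 0.971% of all windows, and its core, which lies inside it, in 8.51% and 2.71%. The GABP motif was in 14.9% against 8.86%, with Sdhd, Cox10, Atp5h, Timm10, Timm23, Tomm22 and Aldoc among its genes. The YY1 motif AAGATGGC was in 8.51% against 2.75%, at Atp5f1, Cox10, Ndufa9 and Timm50. The ERR motif TCAAGGTCA was in 1 window, of Sdhd (2.13% against 0.423%). The hypoxia motif ACGTG was in 31.9% against 19.6%, at 13 genes. These were Ldha, Hk2, Aldoa, Aldoc, Pgk1, Pgam1, Pfkfb3, Ldhd, Atp5f1, Atp5s, Timm10, Timm8a1 and Enoph1. The CCAAT box was in 40.4% against 37.4%, and GGGCGG in 61.7% against 35.7%. Windows of 1 gene can overlap, both strands were searched, and a match is a string of letters, not a bound site.

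The 2 batches captured different promoters and were kept apart: 17 metabolic promoters of 1952 in the first and 28 of 1829 in the second. Summed over all listed contacts, the first batch held 1312829 fetal and 1098957 adult counts and the second 2368080 and 2135161. A contact joins a promoter fragment to a distal bin of 2 kb, and it was taken as called in a population when its deposited score, by its behaviour a −log10 p-value, was above 0. First-batch calls began at a score of 1.3 and second-batch calls at 2.0. Of 10 markers of HSCs and progenitors, 9 were captured, with summed expression of 193 FPKM in fetal against 307 FPKM in adult cells, 7 of them higher in adult cells. All 5 erythroid markers were higher in fetal cells (summed 53.9 against 8.96 FPKM; Klf1 24.0 against 2.40), as were all 6 captured myeloid markers of 7 (73.1 against 4.73 FPKM; Mpo 46.1 against 2.04). Of 5 lymphoid markers only Flt3 was captured (6.20 against 3.81 FPKM), of 4 hepatocyte markers none, and no captured marker was listed at 0. The part of these markers in the differences below was not tested.

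Expression of the metabolic genes divided by pathway. FPKM was higher in fetal cells for 31 genes and higher in adult cells for 10. Every captured gene of complexes I, II and IV and of protein import was higher in fetal cells, every captured gene of fatty acid oxidation was higher in adult cells, and glycolysis held both directions. Many of these genes were captured in the second batch, where every promoter carries the authors' mark of differential expression. That batch held 3 of the 5 promoters of complex I, the 1 of complex II and all 3 of complex IV. It also held 4 of the 10 of protein import, 4 of the 5 of fatty acid oxidation and 11 of the 15 of glycolysis. Directions by pathway thus rest in part on genes already marked as differing. By promoter, fetal FPKM was the higher at 16 of 17 in the first batch, where 48% of all promoters were, and at 19 of 28 in the second, against 45.9% of all. Adult FPKM was the higher at 1 of 17 (51.3% of all) and at 9 of 28 (54.1% of all). The median log2 ratio of fetal over adult FPKM, with 1 added to each, was 0.74 in the first batch and 0.63 in the second, beside -0.04 and -0.54 over all promoters. The authors' deposited table marks 7 of the 17 first-batch promoters as differentially expressed, against 35.5% of all. Of these promoters marked in the authors' deposited table, 6 were higher in fetal cells, against 15.8% of all, and 1, that of Acadm, in adult cells, against 19.7% of all. The authors' deposited table marks all 28 promoters of the second, where the background is 100% because every captured promoter of that batch carries the mark, so that nothing can be read from it there. In bulk samples such as these, fewer cells of a type and less RNA per cell cannot be told apart.

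**Figure D1:**
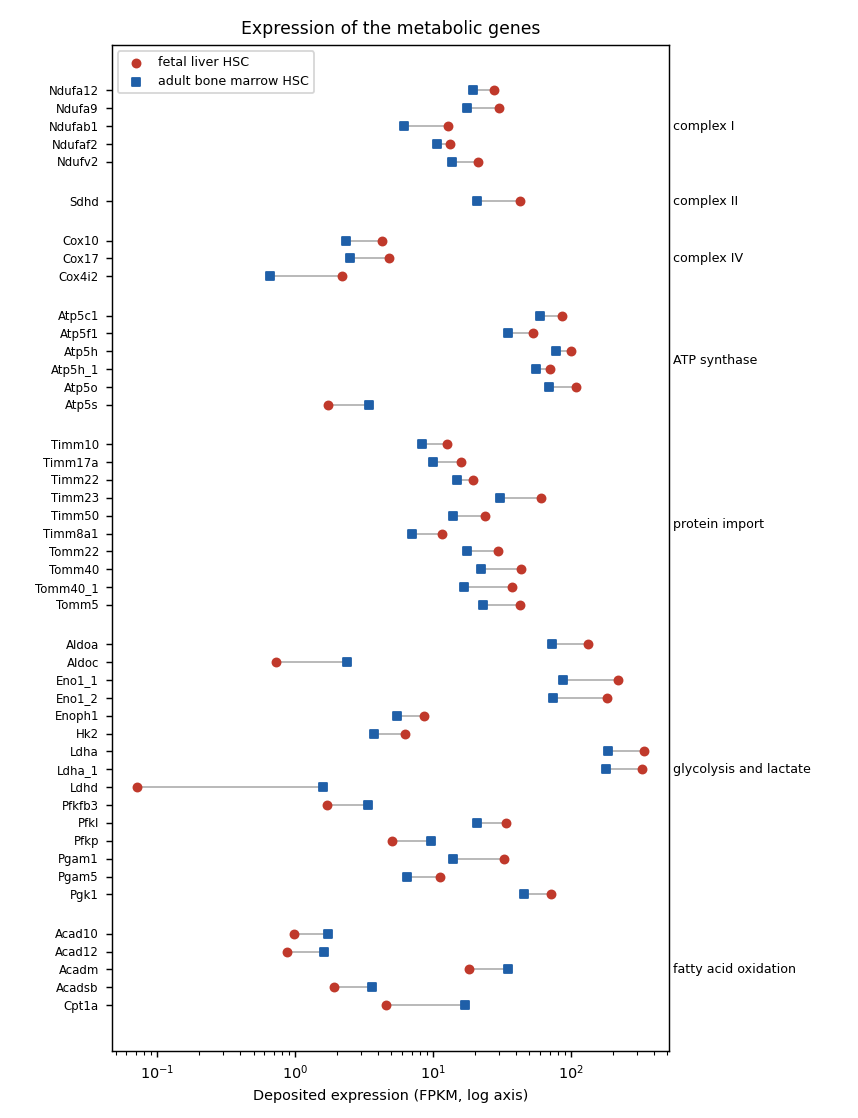
Deposited expression of each metabolic promoter in FPKM (log axis), 1 value per population, for fetal liver HSCs (circles) and adult bone marrow HSCs (squares), grouped by role. The circle lies right of the square for every promoter of complexes I, II and IV and of protein import, and left of it for all 5 promoters of fatty acid oxidation.

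The respiratory chain genes differed by modest factors. In complex I, which takes electrons from NADH, the log2 ratios ran from 0.30 to 0.94. Ndufa9, an accessory subunit, was at 30.0 FPKM in fetal against 17.7 FPKM in adult cells. Ndufv2, an iron-sulfur subunit, was at 21.1 and 13.7 FPKM. Ndufab1, the acyl carrier protein of the complex, had the highest ratio of the group, 2.07, with 12.8 against 6.18 FPKM. Ndufa12 (27.7 and 19.5 FPKM) and the assembly factor Ndufaf2 (13.3 and 10.6 FPKM) had lower ratios, 1.42 and 1.26, and neither carries the mark of differential expression in the authors' deposited table. Sdhd, a membrane anchor of succinate dehydrogenase (complex II), was at 42.7 FPKM in fetal against 21.0 FPKM in adult cells, a ratio of 2.04.

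The complex IV genes were low in both populations. Cox17, a copper chaperone, was at 4.77 FPKM in fetal against 2.51 FPKM in adult cells. Cox10, which makes the heme A precursor, was at 4.29 and 2.32 FPKM. Cox4i2, an alternative form of subunit 4, was at 2.17 and 0.654 FPKM, the widest ratio of the respiratory genes at 3.32. The ATP synthase subunits were abundant by comparison: Atp5o reached 108 FPKM in fetal against 68.9 FPKM in adult cells. Atp5c1, the gamma subunit, was at 85.9 and 60.0 FPKM, and Atp5f1, a stalk subunit, at 53.0 and 34.8 FPKM. The fragments of Atp5h carried 99.5 and 70.5 FPKM in fetal and 78.3 and 56.0 FPKM in adult cells. Atp5s, the coupling factor B, was the exception of the group, at 1.73 FPKM in fetal against 3.43 FPKM in adult cells, an adult excess of 1.98 times.

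All 9 import genes were higher in fetal cells, and the authors' deposited table marks 3 of the 5 captured in the first batch. Tomm40, the channel of the outer membrane, was at 43.6 and 37.6 FPKM at its fragments in fetal cells and at 22.3 and 16.8 FPKM in adult cells. Timm23, the channel of the inner membrane, was at 60.8 FPKM in fetal against 30.7 FPKM in adult cells. Tomm5, a small subunit beside the channel, was at 42.8 and 23.0 FPKM, and the receptor Tomm22 at 29.5 and 17.6 FPKM. The ratios of these 4 genes lay between 1.68 and 2.24. Timm50, Timm17a, Timm10 and Timm8a1 had ratios of 1.72, 1.61, 1.51 and 1.65. Timm22, the core of the carrier translocase, was the nearest to equality at 19.4 and 15.0 FPKM.

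Fatty acid oxidation went the other way for all 5 captured genes. Cpt1a, which loads long-chain fatty acids onto carnitine for import, was at 4.55 FPKM in fetal against 16.9 FPKM in adult cells, an adult excess of 3.72 times. Acadm, the medium-chain acyl-CoA dehydrogenase, was at 18.4 and 34.7 FPKM, an excess of 1.89 times. Acadsb, which acts on short and branched chains, was at 1.91 and 3.61 FPKM. Acad10 and Acad12, less well characterised members of the family, were low in both populations, at 0.983 and 0.869 FPKM in fetal and 1.72 and 1.63 FPKM in adult cells. The ratios of adult over fetal FPKM of Acadsb, Acad10 and Acad12 were 1.89, 1.75 and 1.88.

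Glycolysis and lactate metabolism held the widest spread, with 9 genes higher in fetal and 4 higher in adult cells. The abundant enzymes of the lower pathway were all higher in fetal cells. Eno1, the enolase, was at 220 and 182 FPKM at its fragments in fetal cells and at 87.6 and 73.5 FPKM in adult cells, the highest fetal ratios after that of Cox4i2 (2.52 and 2.48). Pgam1, phosphoglycerate mutase, was at 32.9 FPKM in fetal against 13.9 FPKM in adult cells. Ldha, which makes lactate, was the most abundant of the metabolic genes in both populations, at 337 and 185 FPKM, and is not marked in the authors' deposited table. Aldoa was at 132 and 73.3 FPKM, Pgk1 at 72.2 and 45.4 FPKM, and Hk2, a hexokinase, at 6.29 and 3.75 FPKM. Enoph1 (8.61 and 5.48 FPKM) and Pgam5 (11.2 and 6.53 FPKM), which are counted here by name, were also higher in fetal cells.

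Isoforms of 2 glycolytic steps stood on opposite sides. Of the phosphofructokinases, Pfkl was at 33.7 FPKM in fetal against 20.9 FPKM in adult cells, whereas Pfkp was at 5.06 and 9.66 FPKM. Of the aldolases, Aldoa was higher in fetal cells, whereas Aldoc was at 0.723 FPKM in fetal against 2.39 FPKM in adult cells. Ldhd, a mitochondrial enzyme that oxidises D-lactate, was at 0.0714 FPKM in fetal against 1.58 FPKM in adult cells. Pfkfb3, which makes the allosteric activator of phosphofructokinase, was at 1.72 and 3.36 FPKM. Among the phosphofructokinases and the aldolases alike, the isoform with the adult excess was the less abundant in both populations.

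Other genes of the same pathways ran mostly in the fetal direction. Of 76 listed genes 18 were captured, 17 of them higher in fetal cells. Over all promoters 48% were higher in fetal cells in the first batch and 45.9% in the second. Only 5 of the 18 were captured in the first batch. Of the 17, Stk11 (24.0 against 23.9 FPKM at 1 of its fragments) and Hif1a (5.03 against 4.77 FPKM), both of the first batch, were close to equality. The authors' deposited table marks 2 of the 5 in the first batch, where 35.5% of all promoters are marked. As for every promoter there, it marks all in the second. Pklr, the liver and red cell pyruvate kinase, had the widest ratio at 30.3 FPKM in fetal against 0.965 FPKM in adult cells. Slc16a3, a lactate exporter, was at 11.0 and 1.22 FPKM. The prohibitin Phb2 was at 229 and 110 FPKM, the chaperonin Hspd1 at 111 and 50.8 FPKM, and Cyc1, a subunit of complex III, at 48.9 and 25.4 FPKM. Gabpa, a subunit of the factor that binds the GABP motif, was the only one higher in adult cells, at 10.8 and 11.9 FPKM. The median log2 ratio of the 20 promoters of this list was 0.84, and their calls numbered 502 in fetal and 511 in adult cells.

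Contact numbers did not divide by pathway in this way. The 17 metabolic promoters of the first batch had 283 fetal and 248 adult calls, a ratio of 1.14 beside 1.06 for all promoters. The 28 of the second had 622 and 606, a ratio of 1.03 beside 1.07. More fetal than adult calls were found at 10 of 17 promoters in the first batch, where 48.1% of all promoters had more, and at 12 of 28 in the second, against 50.1% of all. More adult calls were found at 7 of 17 (42.1% of all) and 13 of 28 (38.1% of all), and 3 promoters of the second batch had equal numbers. Of contacts called in a single population, 55.6% were fetal in the first batch (exact 95% Clopper-Pearson interval 49.9 to 61.2) and 51.5% in the second (47.2 to 55.9). Such intervals hold counting error alone, and adjacent bins are often called as a run, which makes them too narrow. Over all promoters, 52.3% and 53.8% were fetal. As a share of listed contacts, the 174 fetal-only and 139 adult-only contacts of the first batch stood beside 38.9% and 35.4% of all contacts, and the 269 and 253 of the second beside 33.8% and 29.1%.

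**Figure D2:**
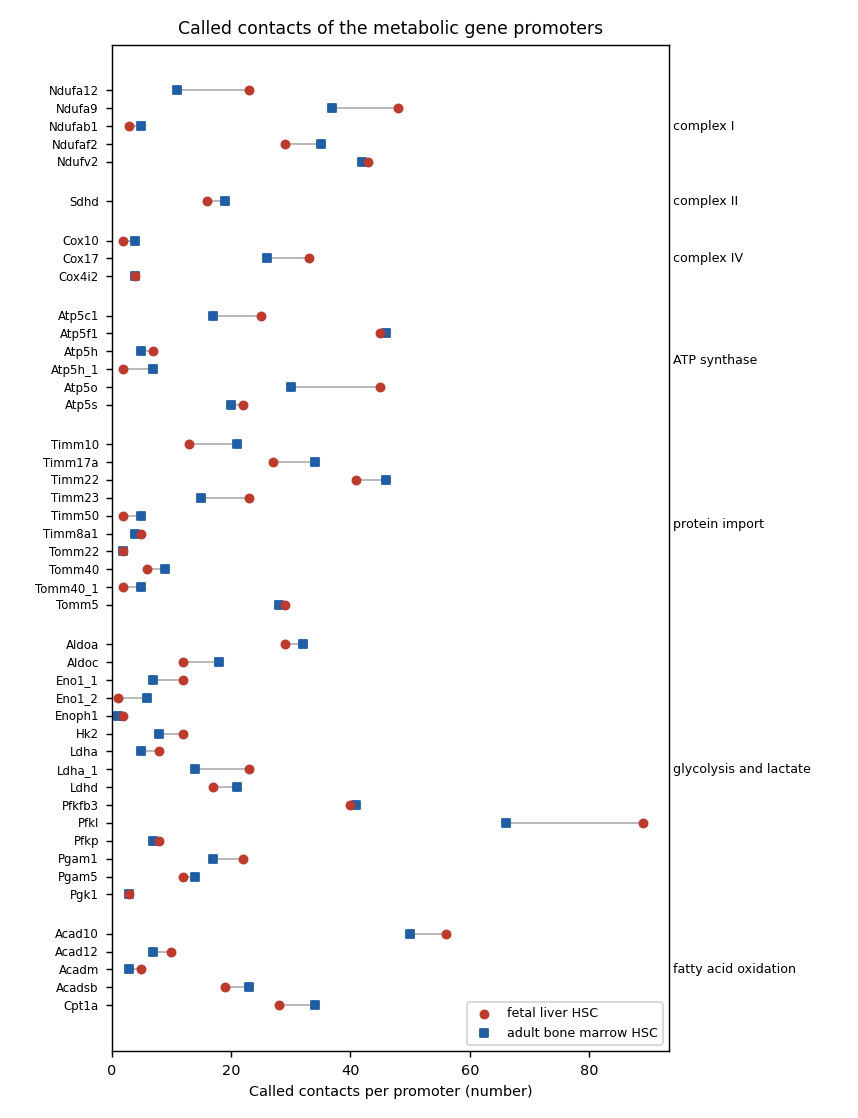
Number of called contacts per metabolic promoter in fetal liver HSCs (circles) and adult bone marrow HSCs (squares), grouped by role, with no error bars because values are pooled. Pfkl stands apart with 89 fetal and 66 adult calls, and neighbouring rows of 1 role lean in different directions.

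Pfkl, Acad10 and Ndufa9 had the most calls in fetal cells, and Pfkl and Acad10 in adult cells. The Pfkl fragment (chromosome 10, 77472311 to 77472736, build mm9 as are all coordinates of the contacts) had 89 fetal and 66 adult calls, 55 of them the same bins, with 5521 fetal and 3961 adult counts within the chromosome. Acad10 (chromosome 5, 122110161 to 122111166) had 56 and 50 calls although its expression was below 2 FPKM in both populations. Ndufa9 (chromosome 6, 126798818 to 126799747) had 48 and 37 calls, Atp5f1 had 45 and 46, and Timm22 had 41 and 46. Few calls went with abundant expression as well: Pgk1 had 3 in each population and Tomm22 had 2 in each. Call numbers include contacts between chromosomes. Within the chromosome Pgk1 had 2 fetal and 1 adult calls, and Tomm22 had 0 and 1. Across promoters, fetal and adult call numbers ranked alike, with a Spearman's rho of 0.857 over the 17 promoters of the first batch and 0.969 over the 28 of the second. Promoters share their libraries and depth, so these values describe the lists only.

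Among promoters with at least 10 calls in total, Ndufa12 leaned most to fetal cells, with 23 fetal and 11 adult calls, only 2 of them shared. A fragment of Eno1 (12 and 7) came next. The fragments of Ldha, with 23 and 8 fetal against 14 and 5 adult calls, Timm23 (23 and 15) and Atp5o (45 and 30) followed. The other Eno1 fragment, which lies just beside the one named and had few calls, leaned the other way, with 1 fetal and 6 adult calls. Only 0 and 3 of these lay within the chromosome. Timm10 leaned most to adult cells, with 13 fetal and 21 adult calls. Aldoc (12 and 18), a fragment of Tomm40 (6 and 9), Timm17a (27 and 34), Ldhd (17 and 21) and Cpt1a (28 and 34) followed. Calls at least 2-fold higher on the scale of log2(calls + 1) were at Ndufa12 for fetal cells (background 10.9%) and at Eno1_2, Atp5h_1, Timm50 and Tomm40_1 for adult cells (background 9.84%), all in the first batch and, for the latter, all with fewer than 10 calls in total. In the second batch no metabolic promoter reached that ratio in either direction (background 11.6% and 7.87%).

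At the metabolic promoters the direction of expression did not carry over to the number of contacts. Of the 35 promoters with higher fetal FPKM, 17 had more fetal calls, 15 had more adult calls and 3 had equal numbers. In the first batch 9 of 16 such promoters had more fetal calls, against 462 of all 936 with higher fetal FPKM. In the second 8 of 19 had, against 449 of all 840. More adult calls were found at 7 of the 16 and 8 of the 19, against 384 of the 936 and 299 of the 840. Of the 10 with higher adult FPKM, 5 had more fetal and 5 more adult calls. Over all promoters with higher adult FPKM, 468 of 1002 in the first and 468 of 989 in the second batch had more fetal calls. The numbers with more adult calls were 434 and 398. Within the import genes, all higher in fetal cells, 3 promoters had more fetal and 6 more adult calls (150 and 169 calls in sum). Within fatty acid oxidation, all higher in adult cells, 3 had more fetal and 2 more adult calls (118 and 117 in sum). Glycolysis had 8 and 6 (290 and 260 calls), complex I had 3 and 2 (146 and 130), and the ATP synthase 4 and 2 (146 and 125). These counts by role pool the batches. Over all promoters, 48.1% of the first and 50.1% of the second batch had more fetal calls, and 42.1% and 38.1% more adult calls. The rank correlation of the expression ratio with the call ratio was -0.017 over 17 promoters in the first batch and 0.10 over 28 in the second, beside 0.024 and 0.07 over all promoters.

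**Figure D3:**
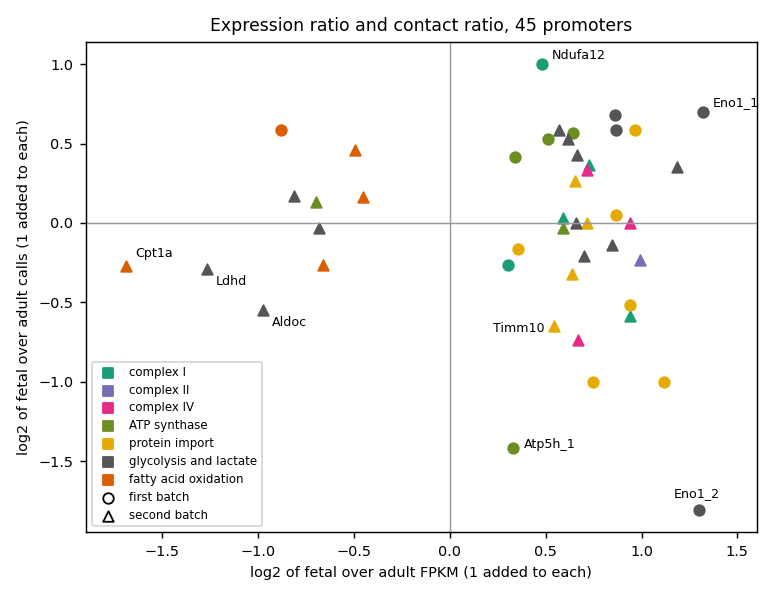
Log2 ratio of fetal over adult FPKM (horizontal axis) against log2 ratio of fetal over adult calls (vertical axis), 1 added to each value, for the 45 metabolic promoters, coloured by role and shaped by batch. Right of zero 17 promoters lie above and 15 below the horizontal line, and left of zero 5 lie above and 5 below it.

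Which bins were called was shared in part. In the first batch 109 of 422 listed contacts were called in both populations, 25.8% (21.7 to 30.3), where 25.7% of all contacts were. In the second batch 353 of 875 were, 40.3% (37.1 to 43.7), against 37.1% of all. As a share of each list, the 109 make up 38.5% of the fetal and 44.0% of the adult calls, and the 353 make up 56.8% and 58.3%. Of 97 contacts within a chromosome that scored 10 or more in either population, 95 were called in both, as were 4023 of the 4233 such contacts of all promoters.

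Fetal calls lay farther from the metabolic promoters. For contacts within a chromosome, first-batch calls had a median distance of 190 kb in fetal against 171 kb in adult cells, and second-batch calls 114 against 87.5 kb. The differences of 19.4 and 26.8 kb stood beside 24.3 and 24.1 kb over all promoters, so they are not particular to these genes. Among promoters with at least 5 calls within the chromosome in each population, the fetal median was the longer at 9 of 12 in the first batch (67.1% of all promoters) and at 18 of 21 in the second (84.6% of all). Cpt1a had medians of 109 kb in fetal against 63.0 kb in adult cells. Aldoa had 179 and 101 kb, Timm17a 119 and 57.0 kb, and Atp5s 285 and 151 kb. Ndufa12 went against this, with 280 and 314 kb.

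**Figure D4:**
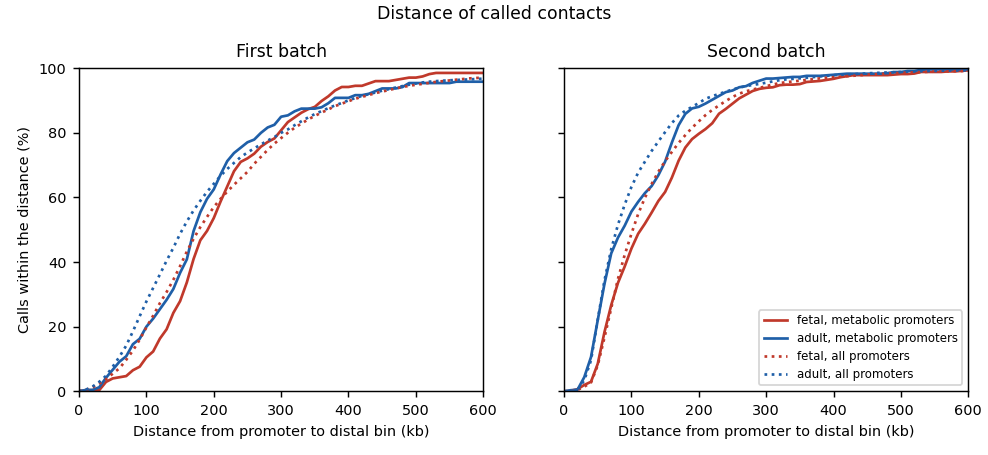
Cumulative percentage of called contacts within a chromosome by distance from promoter to distal bin (kb, shown to 600 kb), for metabolic promoters (solid) and all promoters (dotted), fetal in red and adult in blue, by batch. The fetal curves lie right of the adult curves at short and middle range, with medians for metabolic promoters of 190 and 171 kb in the first batch and 114 and 87.5 kb in the second.

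The deposited marks of the distal bins show what the promoters met. Active promoter bins, marked as such in the population of the call, made up 16.3% of the fetal and 17.3% of the adult calls of the first batch and 19.3% and 19.8% of those of the second. Over all calls these shares were 15.6% and 18.3%, then 18.2% and 20.3%. Open bins (ATAC) made up 53.7% of the fetal and 48.8% of the adult calls of the first batch, and 57.4% and 58.3% of those of the second, beside 53.0%, 54.6%, 56.7% and 57.2% over all calls. Active enhancer bins made up 11.3% of fetal calls (32 of 283, 7.86 to 15.6) and 6.85% of adult calls (17 of 248, 4.04 to 10.7) in the first batch. Over all calls of that batch the shares were 12.7% and 13.1%. The latter lies above the adult interval, but that interval holds counting error alone and is too narrow where adjacent bins are called as a run. No depletion is therefore read from it. In the second batch the shares were 11.6% (72 of 622) and 13.0% (79 of 606), beside 12.9% and 13.7% over all calls. Strong contacts met active promoter or enhancer bins in 54.6% of cases, against 32.6% of all 1274 metabolic contacts within a chromosome. Over all promoters these shares were 60.0% and 33.5%.

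Single promoters differed in their enhancer calls. Pfkfb3 had 4 fetal and 13 adult calls at bins active as enhancers in the calling population, the direction of its expression. Sdhd had 4 and 0, Acad10 12 and 6, Ndufaf2 8 and 4, and Eno1_1 3 and 0. Acad10 leaned against its expression, as did Atp5c1 (0 and 3), Timm10 (1 and 4) and Timm17a (2 and 5). In sum, promoters with higher fetal FPKM had 77 fetal and 69 adult enhancer calls, and those with higher adult FPKM had 27 and 27. At bins active as an enhancer in only 1 population, the metabolic promoters had 85 contacts, 54 at bins active in fetal and 31 at bins active in adult cells. Of the former 18 were called in fetal only, 18 in adult only and 18 in both, and of the latter 9, 14 and 8. Thus 32 contacts called in 1 population were called in the one with the mark and 27 in the other. At fetal-only enhancer bins, fetal calls made up 6 of the 13 single-population contacts of the first batch (46.2%) and 12 of the 23 of the second (52.2%), beside 54.9% and 59.6% over all promoters. At adult-only enhancer bins they made up 3 of 7 (42.9%) and 6 of 16 (37.5%), beside 43.4% and 40.2%. Hk2, Atp5s, Aldoa and Ldhd had contacts called only in the population with the mark in both directions. Pgam1 had fetal-only contacts at fetal-only enhancer bins 88.7 and 107 kb away, with 22 and 41 fetal against 6 and 14 adult counts. Acad10, whose expression was higher in adult cells, had 3 fetal-only contacts at fetal-only enhancer bins 63.7, 180 and 184 kb away, with 34, 29 and 34 fetal against 19, 12 and 17 adult counts. Ndufa12 had such a contact 138 kb away with 10 fetal and 0 adult counts. Atp5c1, whose expression was higher in fetal cells, had 3 adult-only contacts at adult-only enhancer bins, with 9, 8 and 6 adult counts against 0, 3 and 2 fetal counts. At Acad10 and Atp5c1 these contacts thus lay in the population with the lower expression, and at Pgam1 and Ndufa12 in the one with the higher.

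The strongest contact within a chromosome belonged to Pfkfb3 (chromosome 2, 11423507 to 11423699). It joined the promoter to a bin 171 kb away (11252001 to 11254001) that is marked as an active enhancer in both populations, with scores of 118 in fetal and 113 in adult cells and counts of 237 and 239. The next bin scored 55.7 and 61.9. The counts of this contact were thus nearly equal, whereas Pfkfb3 expression was lower in fetal cells. Some other enhancer contacts of Pfkfb3 were called in adult cells alone. At bins active in adult cells only, 29.4, 127 and 141 kb away, counts were 65, 48 and 29 in adult and 44, 21 and 20 in fetal cells.

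Other contacts of high score joined a metabolic promoter to an active promoter bin. Ndufa9 met such a bin 89.7 kb away with scores of 94.8 in fetal and 21.8 in adult cells and counts of 185 and 67, the widest gap of the contacts named here. Timm22 met a bin 164 kb away that holds the captured promoters of Glod4 and Rnmtl1, with scores of 84.6 and 80.3. Ndufaf2 met the bin of Depdc1b at 158 kb, with scores of 52.1 and 83.2 and counts of 51 and 73. Pfkp met that of Pitrm1, a mitochondrial protease gene, at 101 kb, with counts of 80 in fetal and 108 in adult cells. Cpt1a met the bin of Mtl5 66.0 kb away with counts of 97 and 89, and that of Mrpl21, a mitochondrial ribosomal protein gene, 40.0 kb away with counts of 62 and 54. Ldhd met that of Znrf1 at 93.0 kb, with counts of 86 and 109. These contacts were called in both populations, as were 95 of the 97 metabolic contacts that scored 10 or more in either. They were picked for high score, so nothing about the direction of expression can be read from this.

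**Figure D5:**
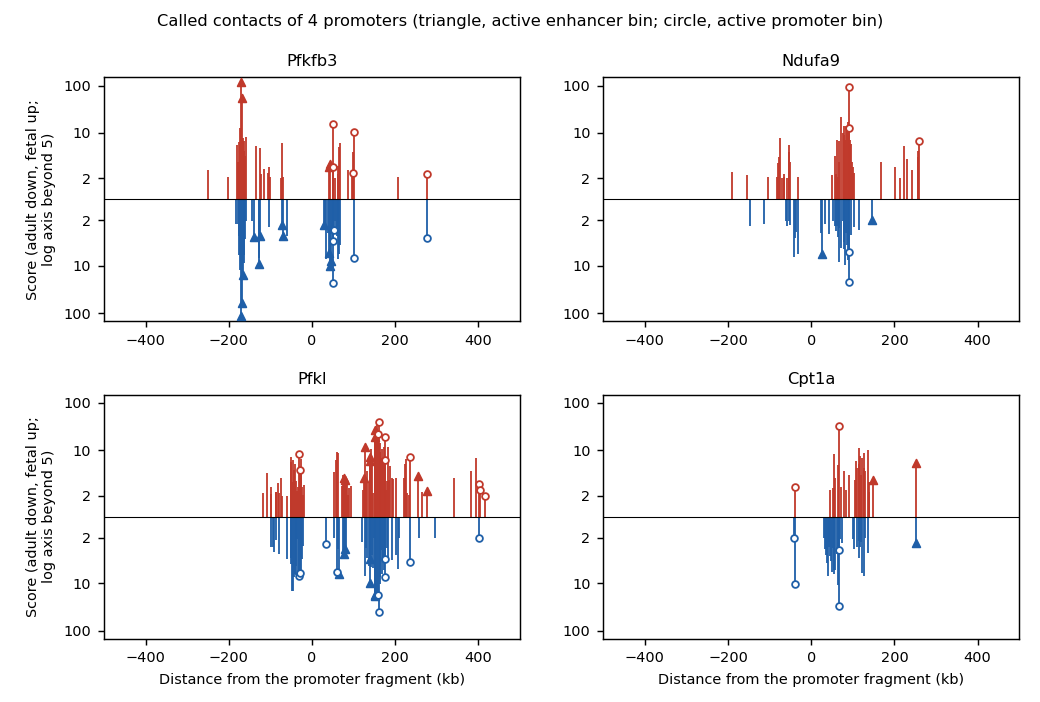
Scores of called contacts of Pfkfb3, Ndufa9, Pfkl and Cpt1a by distance from the promoter fragment (kb), fetal upward and adult downward, on an axis that is linear to 5 and logarithmic beyond. Triangles are bins active as enhancers and circles bins active as promoters in that population; the Pfkfb3 enhancer contact at 171 kb reaches 118 and 113, and the Ndufa9 contact at 89.7 kb reaches 94.8 and 21.8.

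Some contacts joined 2 captured promoters. The metabolic promoters had 76 contacts within a chromosome to a bin that holds another captured promoter, 13 called in fetal only, 22 in adult only and 41 in both. They made up 5.97% of the metabolic contacts within a chromosome, where such contacts made up 6.28% over all promoters. Of them 17.1% were called in fetal only, 28.9% in adult only and 53.9% in both populations. Over all promoters these shares were 23.5%, 30.0% and 46.5%. Aldoa had 5 such contacts called in adult cells only, at the bins of Gdpd3, Ypel3, Ppp4c, Ino80e and Sephs2. The fetal counts of these contacts were not all lower: the Ypel3 contact had 241 fetal and 168 adult counts, and the Ppp4c contact 430 and 496. Ldha met the bin of Hps5 with 113 fetal and 81 adult counts from the fragment Ldha_1, and from the other fragment the contact was called in adult cells only, with 38 fetal and 30 adult counts. Acad10 and Acad12, whose promoters share the stretches printed above, met each other across 42 kb. From the Acad10 side the scores were 9.95 in fetal and 16.4 in adult cells with counts of 104 and 75, and from the Acad12 side 10.6 and 21.1 with counts of 138 and 78. The contact was called in both populations from both ends, with the higher counts in fetal and the higher scores in adult cells. Both also met the bin of Erp29.

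Contacts between chromosomes were few but held a large share of the counts. The metabolic promoters had 23, of which 14 were called in both, 4 were fetal only and 5 were adult only. They made up 2.13% of the listed contacts in the first batch and 1.6% in the second, beside 1.31% and 1.05% over all promoters. In the first batch they held 61.5% of the fetal and 46.8% of the adult counts of the metabolic promoters, and in the second 69.4% and 68.3%. Over all promoters these shares were 32.0% and 30.8%, then 14.9% and 15.1%. Timm8a1 on chromosome X met 1 bin on chromosome 10 with 72298 fetal and 59886 adult counts, and without that contact the shares of the second batch were 5.61% and 6.28%. Eno1_2 met 1 bin on chromosome 18 with 7594 and 3755 counts, and without that contact the shares of the first batch were 8.08% and 5.78%. The other Eno1 fragment met the same bin with 137 and 98 counts. Pgam1 met 1 bin on chromosome 7 with 1151 and 1046 counts. For 7 of the 23 contacts, of Eno1, Pgam1 and Pgk1, the other chromosome carries a gene of related name in the GRCm38 RefSeq list (Eno1b, Pgam1-ps2, Pgk1-rs7 or Pgk1-ps3). How reads of near-identical copies were assigned is not given in the sources used here, so the values of these contacts are uncertain, and 1 of the 23 lay at an active promoter or enhancer bin. Without them, the first batch held 5039 fetal and 4595 adult counts of metabolic promoters and the second 32688 and 28665, ratios of 1.10 and 1.14 beside 1.17 and 1.11 over all promoters.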

How the data were processed

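Capture-C contacts of fetal liver and adult bone marrow HSCs were taken from the authors' deposited table. Per the labels' protocols, DpnII-digested, ligated chromatin was captured with SureSelect XT2 and read as paired ends. The submitters' processing notes list Trim Galore 0.41, Bowtie2 2.2.2 and build mm9, with no role or order, and the deposited table names the caller LiMACC. The authors deposited 1 score per contact and population (−log10 of a p-value from its behaviour, 0 where not called), 1 whole-number count, FPKM per promoter and population, and other marks of 0 or 1 for distal bins. Whether a count is a sum over the libraries is not given in the sources used here, and 0 columns of values were unassigned. The planned count test over libraries could not be run on pooled values.

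Here calls, shares with exact Clopper-Pearson intervals, medians and log2 ratios (1 added to each side) were computed per batch with Python 3.11.15, pandas 2.3.3, numpy 2.4.6 and scipy 1.17.1, and the scripts were tested on simulated data. Distance runs between the middles of fragment and bin. Scaled ratios of single contacts use totals within chromosomes, a choice made after the counts were seen. The log2(FPKM + 1) scale understates changes of low genes.

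The promoters named are, by rule, those with the most contacts of their role, the 3 with the most calls per population, the 6 with the largest ratio of calls (from 10 calls) and of FPKM (from 1 FPKM) per direction, the highest scores, and contacts with another metabolic gene or with matched enhancer bins; the rest illustrate a role, a count or a partner. The genes and lists were chosen with earlier results of these data known. RefSeq tables of GRCm38.p6 served for names and promoter windows only, and 2 genes were matched through a synonym.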

Additional observations from a re-analysis of the deposited data

How the results depend on the processing

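Of 54 alternative values, 46 kept their direction and their size within counting error. Some of the 46 could not move, because the alternative removed nothing there. In the first batch these left out Enoph1 and Pgam5, read the name rule in another way, or left out contacts of 1000 counts or more. In the second batch they took 1 promoter per gene, and for expression they set a limit of 1 FPKM. The share of first-batch contacts called in both populations was 34.6% in place of 25.8% at a p 10 times smaller. Counting distal bins within 5 kb as shared raised the overlap in the first batch from 38.5% to 59.4% of fetal and from 44.0% to 64.5% of adult calls, and in the second from 56.8% to 80.1% and from 58.3% to 80.4%. Within chromosomes, fetal cells held 52.3% of the counts of the first batch and 53.3% of those of the second. Divided by the totals over all listed contacts it became 47.9%, which reverses its direction, and 50.7%, and without contacts of 1000 counts or more it was 54.0% in the second batch. The totals used as divisors were themselves larger for fetal cells, with 1312829 fetal and 1098957 adult counts (first batch) or 2368080 and 2135161 (second batch). Within chromosomes, the first-batch ratio of fetal over adult counts was 1.10 for metabolic promoters, below 1.17 for all promoters. The unscaled 52.3% was thus no fetal excess beyond that of all promoters. The second-batch ratio was 1.14, beside 1.11 for all promoters. Why the metabolic promoters differed from all promoters was not tested. The difference in median distance stayed positive, from 12.4 to 20.5 kb in the first and from 26.8 to 33.6 kb in the second batch, over a stricter score, distance limits and 1 promoter per gene. The median log2 ratio of FPKM over the 45 promoters was 0.64, and 0.68 with 0.1 added in place of 1. No paired analysis was possible because the columns are pooled per population and batch and carry no replicate numbers, and leaving out a library could not be run for the same reason. Depth limits single calls, some of which rest on few counts, such as 10 fetal and 0 adult counts at Ndufa12.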

Other observations

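Contacts with at least 50 counts in either population and a wide difference between the populations were picked after their values were seen and are given as values. Pgam1 met an active promoter bin 65.3 kb away with 61 fetal and 20 adult counts, and the contact was called in fetal cells only. Pfkl met an enhancer bin active in both populations 126 kb away with 66 fetal and 22 adult counts. Cox17 met an open bin 136 kb away with 84 and 30 counts, called in both. On the adult side, Ndufv2 met a bin 214 kb away, open in adult cells only, with 33 fetal and 59 adult counts, and Aldoa an open bin 292 kb away with 28 and 54.

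At Pfkfb3, 3 neighbouring bins were called in adult cells only and carried different marks. The bin 29.4 kb away is marked as an active enhancer in adult cells only (44 fetal and 65 adult counts). The bins 31.4 and 33.4 kb away are marked as active enhancers in fetal cells only (24 and 55 counts, then 51 and 92), so that the mark and the call pointed to different populations.

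The fragments of Ldha, about 4 kb apart, each met the bin of the other. Seen from 1 fragment the contact was called in fetal cells only (233 fetal and 199 adult counts, score 2.21), and seen from the other in adult cells only (249 and 229 counts, score 2.26). The class of this contact thus turned with the viewpoint while its counts differed little.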
